A study of Mus musculus with 6 samples.

Results

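The genes described here are 32 genes of the unfolded protein response of the endoplasmic reticulum (ER): luminal chaperones and their co-chaperones, disulfide isomerases and oxidases, secreted stress proteins, the IRE1, XBP1 and ATF6 sensors and factors, and the machinery of ER-associated degradation. They were selected by gene name, and all 32 were among the 27021 genes of the deposited count table. RNA was sequenced from heart tissue, 1 library per mouse, and the sources used here do not say whether atria were included. The mice were 3 of genotype Immtfl/fl-Myh6-MCM (knockout hearts) and 3 of genotype Immt+/+-Myh6-MCM (control hearts). The paper used both sexes for its inducible deletion. Immt encodes Mic60, a core protein of the complex that organizes mitochondrial cristae, and the MerCreMer recombinase is driven by the Myh6 promoter, so that loss was directed to cardiomyocytes. Mice of both groups carried the Myh6-MerCreMer transgene and received tamoxifen at 40 mg/kg in 3 injections, every other day from 6 weeks of age, and hearts were taken 20 weeks later, at an age of 26 weeks. Immt itself had 23.0, 28.7 and 39.2 CPM (counts scaled by library size) in knockout hearts, against 663, 453 and 524 CPM in control hearts, a log2 fold change of -4.17 (SE 0.239, adjusted p = 6.33e-06, edgeR's quasi-likelihood test).

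The ER folds secreted and membrane proteins, and misfolded protein in its lumen is sensed by IRE1, ATF6 and PERK. IRE1 splices the mRNA of Xbp1, ATF6 is carried to the Golgi and cleaved into a transcription factor, and PERK phosphorylates eIF2alpha, which slows translation while ATF4 is made. XBP1 and cleaved ATF6 act on chaperone and degradation genes, whereas ATF4 acts mainly on amino acid, redox and apoptosis genes. In cardiomyocytes the ER is continuous with the sarcoplasmic reticulum, the calcium store of contraction. The counts cover whole genes, so that Xbp1 splicing, ATF6 cleavage and PERK phosphorylation were not measured.

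ATF6 and XBP1 act through short promoter elements, and these are shown because they divide the genes below into groups that can be read beside the expression values. RefSeq promoter windows (GRCm38.p6), from 250 bases before to 50 bases after the start of transcription, were matched for 28 of the 32 genes. Atf6, Hyou1, Manf and Derl1 were not matched. The ER stress response element (ERSE: CCAAT, then 9 bases of any kind, then CCACG), searched on both strands, was found in 10 of the 28 windows (35.7%), against 37 of the 27025 genes with a promoter window (0.137%). ERSE-II (ATTGG, then 1 base of any kind, then CCACG) was found in 2 of the 28 (7.14%), against 12 of all 27025 (0.0444%). The windows carrying a match are printed in the direction of the gene with the element in capitals and 5 bases on each side. Where the element lies on the opposite strand, its letters read CGTGG first and ATTGG last.
Hspa5 (chr2:34772020-34772048, plus strand): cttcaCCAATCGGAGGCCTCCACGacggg
Hsp90b1, farther match (chr10:86705633-86705661, minus strand): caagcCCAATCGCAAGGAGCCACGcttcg
Hsp90b1, nearer match (chr10:86705528-86705556, minus strand): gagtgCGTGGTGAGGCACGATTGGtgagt
Calr (chr8:84847070-84847098, minus strand): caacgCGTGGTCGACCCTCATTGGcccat
Canx (chr11:50325795-50325823, minus strand): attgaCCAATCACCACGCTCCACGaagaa
Dnajc3 (chr14:118937822-118937850, plus strand): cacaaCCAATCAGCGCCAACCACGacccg
Pdia6 (chr12:17266486-17266514, plus strand): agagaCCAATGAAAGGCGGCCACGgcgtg
Ero1lb (chr13:12565677-12565705, plus strand): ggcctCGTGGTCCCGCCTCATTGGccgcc
Creld2 (chr15:88819515-88819543, plus strand): cttctCGTGGCGAGCCTCAATTGGtccac
Syvn1 (chr19:6046527-6046555, plus strand): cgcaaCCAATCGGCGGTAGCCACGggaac
Derl3 (chr10:75893237-75893265, plus strand): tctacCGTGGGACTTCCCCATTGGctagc
Herpud1, ERSE-II (chr8:94386372-94386392, plus strand): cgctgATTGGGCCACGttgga
Dnajb11, ERSE-II (chr16:22857847-22857867, plus strand): cggcgATTGGCCCACGcctgg

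The first base of the ERSE lay 65 bases before the start in Hspa5, 44 in Syvn1, 145 in Canx and 212 and 107 in Hsp90b1. The XBP1 element UPRE, searched as TGACGTGG, was in none of the 28 windows and in 0.714% of all genes, and an ATF4 element (CARE, searched as TGATGNAAN) was in Herpud1 alone, 1 of 28 (3.57%), against 4.5% of all genes. A match is a description of the letters, and its absence says only that these letters are not in the window.

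Total counts were 49793058 to 53251529 per knockout heart and 42301627 to 44151674 per control heart, and CPM values below are scaled by TMM factors (1.04 to 1.14 in knockout hearts, 0.884 to 0.939 in control hearts). Summed CPM of 10 cardiomyocyte markers was 31510 to 45390 in knockout hearts, against 72860 to 79320 in control hearts, and 6 of the 10 were called lower. Summed CPM of the atrial muscle markers was 1198 to 1638 in knockout hearts, against 128 to 257 in control hearts. Of the 4 tested, 3 were called higher and 1 fell (log2 fold change -0.64). The atrial list includes Bmp10, which the paper reports as induced by loss of Mic60, so its sum is not a measure of atrial cells alone. Of 10 endothelial markers 2 rose and 3 fell. Beside these marker counts, 9.91% of all tested genes were called higher, 10.6% were called lower, 19.9% rose and 18.5% fell. Mitochondrially encoded transcripts made up 8.21% to 8.85% of counts in knockout hearts and 19.5% to 23.3% in control hearts. In RNA of heart tissue, fewer cells of a type and less RNA per cell cannot be told apart. The part of these shifts in the differences below was not tested. Dividing by library totals alone raised the median log2 fold change of all genes by 0.25, so that changes are read against that shift where this scaling is named. Xist, expressed from the inactive X chromosome, had 4 to 16 counts in knockout hearts 1 and 2, 20811 in knockout heart 3, 4 to 8 in control hearts 1 and 2, and 11605 in control heart 3.

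All 32 genes passed the filter on low counts. A gene is said to have risen or fallen where its adjusted p was under 0.05 (Benjamini-Hochberg over 17146 genes, edgeR's quasi-likelihood test), and to be called where its log2 fold change also lay beyond 1 in either direction. Of the 32 genes, 8 were called higher, where 9.91% of all tested genes were, and 0 were called lower, where 10.6% were. At the adjusted p alone, 16 rose (19.9% of all genes did) and 0 fell (18.5% did). Only Pdia4 was lower at an unadjusted p under 0.05, and DESeq2 gave 17 higher and 0 lower. The median log2 fold change of the 32 was 0.50, beside -0.0012 over all genes, and 27 of the 32 were above 0. Every knockout heart lay above every control heart in 19 genes (26.9% of all genes) and below every control heart in Calr and Crebrf, that is in 2 genes (26% of all genes). Of the 16 that rose, Derl1, Ero1l, Ern1, Atf6, Dnajb9, Wfs1, Xbp1, Edem1, Sel1l and Dnajb11 passed the adjusted p under all 14 alternatives. Without control heart 1 the number that rose was 10, and without knockout heart 3 the median log2 fold change was 0.28. The share of all genes that rose without control heart 1 was not counted.

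**Figure D1:**
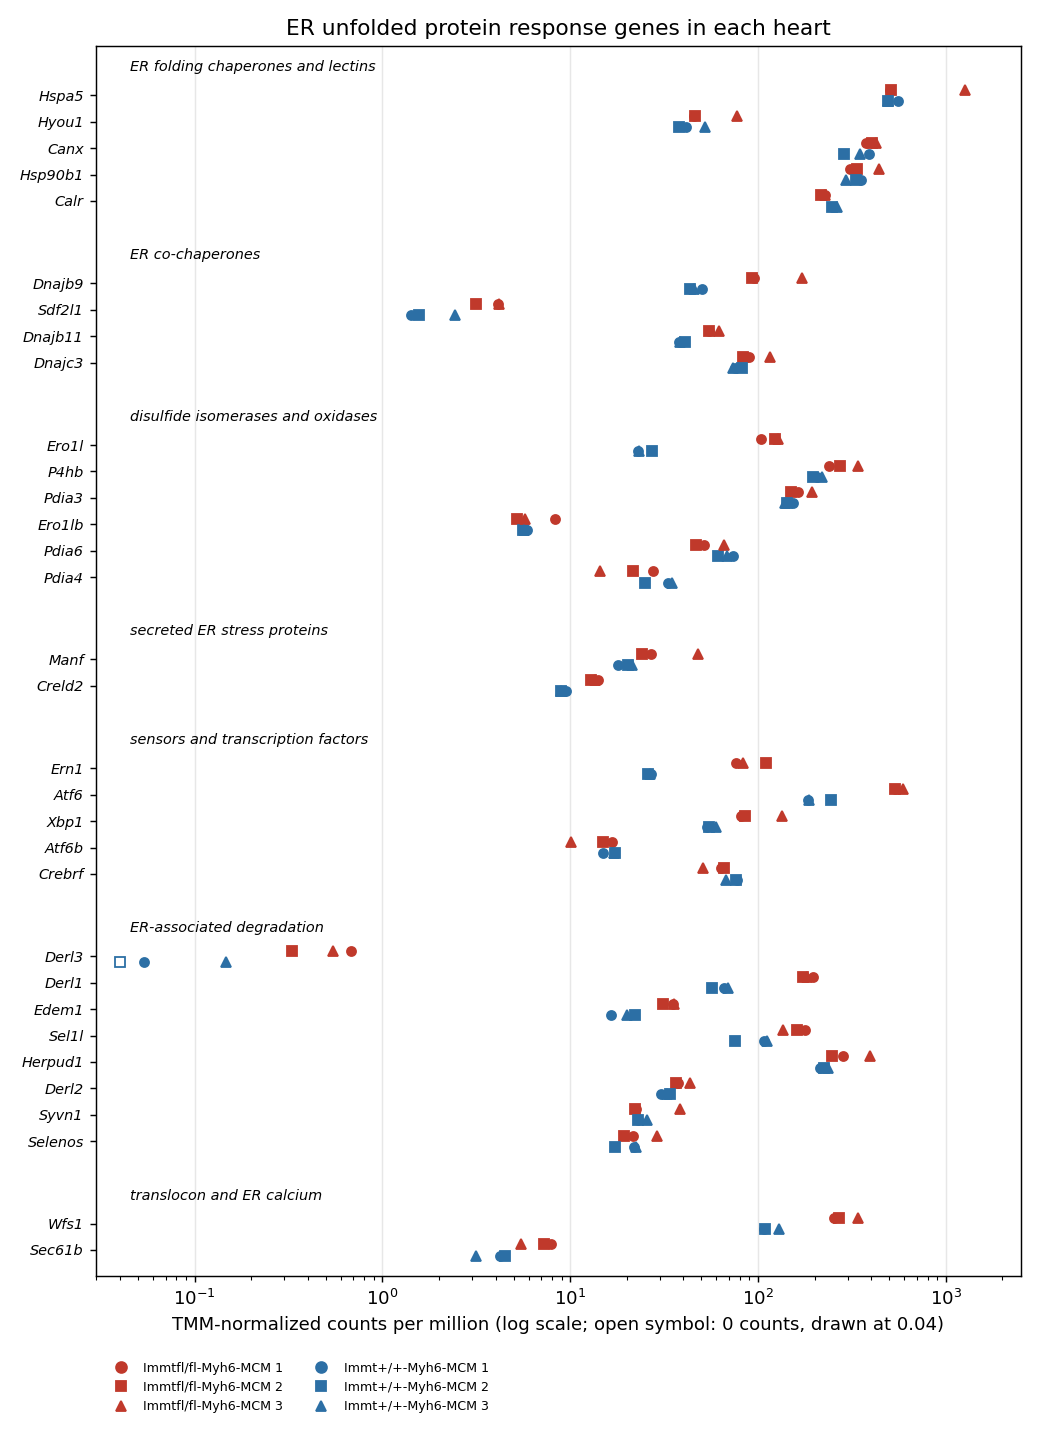
TMM-normalized CPM (log scale) of the 32 genes in each heart, grouped by role, with knockout hearts in red above control hearts in blue and the heart's number given by the symbol. Ero1l, Ern1, Derl1, Atf6 and Wfs1 separate by group, while Hspa5 stands apart in knockout heart 3 alone at 1271 CPM.

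Of the 5 genes for sensors and transcription factors, Ern1 and Atf6 were called higher and Xbp1 rose without a call. Ern1, which encodes the IRE1alpha kinase and RNase, had 76.8, 110.0 and 83.4 CPM in knockout hearts, against 27.0, 26.01 and 26.7 CPM in control hearts. The 3 control hearts lay within 1 CPM of each other and far below the lowest knockout heart, and the log2 fold change was 1.76 (SE 0.151, adjusted p = 3.96e-05, edgeR). Atf6, the membrane-anchored sensor, had 538, 536 and 589.8 CPM in knockout hearts, against 184, 245 and 187 CPM in control hearts. The knockout hearts were close together, and the log2 fold change was 1.43 (SE 0.142, adjusted p = 8.8e-05, edgeR). Xbp1, the transcription factor whose mRNA IRE1alpha splices, had 80.9, 85.1 and 134 CPM in knockout hearts, against 53.6, 55.2 and 59.5 CPM in control hearts. All knockout hearts were above all control hearts, with knockout heart 3 farthest, and Xbp1 rose by 0.84 on the log2 scale (SE 0.191, adjusted p = 0.00791, edgeR), short of a call.

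Atf6b and Crebrf did not pass. Atf6b, a related ER-anchored factor, had 16.6, 14.9 and 10.1 CPM in knockout hearts, against 14.9, 17.3 and 17.0 CPM in control hearts, and the groups overlapped (log2 fold change -0.24, SE 0.203, adjusted p = 0.381, edgeR). With library totals alone its log2 fold change was 0.02. Crebrf, a factor that binds CREB3 and promotes its degradation, had 63.8, 65.8 and 50.7 CPM in knockout hearts, against 77.7, 76.6 and 67.8 CPM in control hearts. All knockout hearts were below all control hearts, but the difference of -0.30 did not pass the test (SE 0.134, adjusted p = 0.106, edgeR).

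ER-associated degradation moves misfolded protein from the ER to the proteasome. Of its 8 genes here, 2 were called higher, 4 rose in all, 0 fell, and all 8 log2 fold changes were above 0 (median 0.57). Of all tested genes 9.91% were called higher, 19.9% rose and 18.5% fell, and 8566 of 17146 had a log2 fold change above 0. Derl1, a derlin of the membrane channel, had 197, 174 and 181 CPM in knockout hearts, against 66.0, 57.1 and 69.4 CPM in control hearts. The groups were well apart, with a log2 fold change of 1.52 (SE 0.123, adjusted p = 2.9e-05, edgeR). Derl3, another derlin, was the least abundant of the 32 genes, with 40, 18 and 30 counts in knockout hearts, against 2, 0 and 6 counts in control hearts. The log2 fold change of 2.90 was the largest of the 32 but had the widest error (SE 0.894, adjusted p = 0.0293, edgeR), and the call was lost when knockout heart 1, knockout heart 3, control heart 1 or control heart 2 was left out.

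Edem1, a lectin that marks glycoproteins for degradation, had 35.4, 31.3 and 35.8 CPM in knockout hearts, against 16.4, 22.2 and 20.0 CPM in control hearts (log2 fold change 0.81, SE 0.15, adjusted p = 0.00271, edgeR). Sel1l, the adaptor of the ligase complex, had 178, 162 and 136 CPM in knockout hearts, against 108, 75.7 and 112 CPM in control hearts (log2 fold change 0.69, SE 0.171, adjusted p = 0.0115, edgeR). Both rose without reaching a call. Syvn1, the HRD1 ubiquitin ligase that Sel1l holds, did not pass, with 22.3, 22.2 and 38.3 CPM in knockout hearts, against 22.8, 23.0 and 25.6 CPM in control hearts. Knockout hearts 1 and 2 lay below all control hearts and knockout heart 3 above them, and the log2 fold change was 0.21 with all hearts (SE 0.216, adjusted p = 0.475, edgeR) and -0.09 without knockout heart 3.

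Herpud1, an ER membrane partner of the same ligase, had 283, 249 and 396 CPM in knockout hearts, against 214, 226 and 237 CPM in control hearts. The groups did not overlap, yet the log2 fold change of 0.45 missed the threshold (SE 0.17, adjusted p = 0.0611, edgeR), and DESeq2 placed it under the threshold with an adjusted p of 0.0469. Derl2, the remaining derlin, had 37.4, 36.7 and 43.6 CPM in knockout hearts, against 30.5, 34.2 and 32.8 CPM in control hearts (log2 fold change 0.27, adjusted p = 0.114, edgeR). Selenos, a selenoprotein that recruits the p97 ATPase, had overlapping groups and a log2 fold change of 0.19 (adjusted p = 0.471, edgeR).

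**Figure D2:**
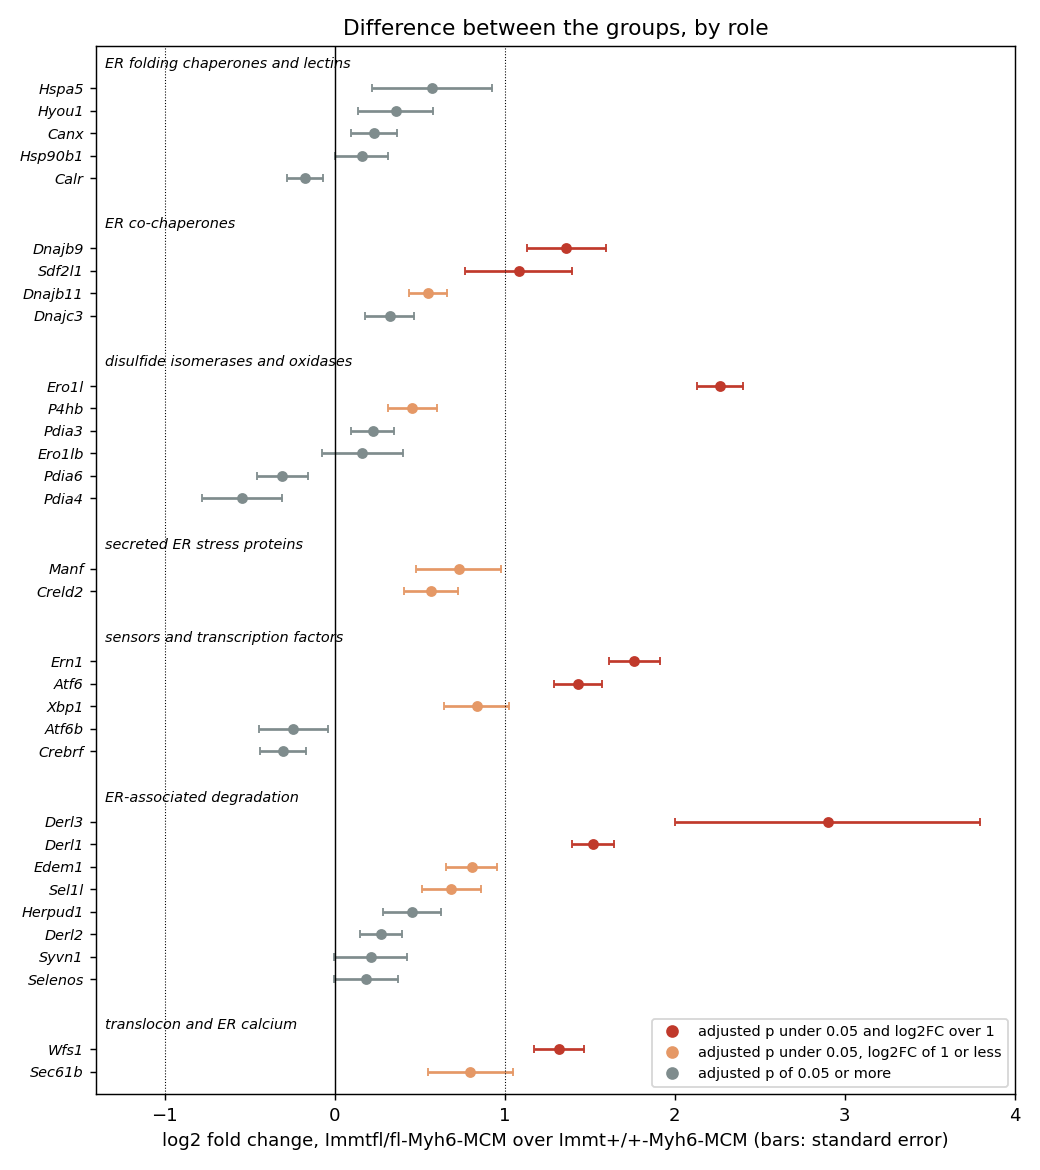
Log2 fold change of each gene, knockout over control, with its standard error, grouped by role, with dotted lines at -1 and 1 and colours for the test. The 8 genes called higher lie in 5 of the 7 roles, and none of the 5 folding chaperones and lectins passed the adjusted p. Of all tested genes 19.9% rose and 18.5% fell.

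Disulfide bonds are made by ER oxidases and passed on by protein disulfide isomerases, and of the 2 oxidases only Ero1l passed the test. Ero1l, the oxidase ERO1alpha, had 104, 123 and 128 CPM in knockout hearts, against 23.1, 27.3 and 23.3 CPM in control hearts. It was 4.82 times higher by the ratio of means, with a log2 fold change of 2.27 (SE 0.136, adjusted p = 5.53e-06, edgeR), the smallest adjusted p among the 32 genes. Its paralog Ero1lb (ERO1beta) had 8.31, 5.20 and 5.71 CPM in knockout hearts, against 5.89, 5.63 and 5.65 CPM in control hearts. The groups overlapped, and the log2 fold change was 0.16 with all hearts (SE 0.239, adjusted p = 0.628, edgeR) and -0.06 without knockout heart 1.

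Of the 4 isomerases, only P4hb passed the test. P4hb, the abundant isomerase that ERO1 reoxidizes, had 239, 272 and 341 CPM in knockout hearts, against 206, 197 and 218 CPM in control hearts. It rose by 0.46 on the log2 scale (SE 0.145, adjusted p = 0.0332, edgeR), but missed the adjusted p with upper-quartile factors and when any heart other than knockout heart 1 was left out. Pdia3, the isomerase that works with calnexin and calreticulin, had overlapping groups (log2 fold change 0.22, adjusted p = 0.194, edgeR). Pdia4 had 27.5, 21.7 and 14.5 CPM in knockout hearts, against 33.1, 24.9 and 34.98 CPM in control hearts, and Pdia6 had 51.7, 46.5 and 65.8 CPM in knockout hearts, against 73.6, 61.1 and 68.4 CPM in control hearts. Both are luminal isomerases, both overlapped between groups, and neither passed (log2 fold changes -0.55 and -0.31, adjusted p = 0.0976 and 0.138, edgeR). Without knockout heart 1 Pdia4 fell by 0.76 past the adjusted p, and without knockout heart 3 Pdia6 fell by 0.46 past it.

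The J-domain co-chaperones, which bring clients to BiP, and their partner Sdf2l1 comprised 4 genes, of which 3 rose, where 19.9% of all genes did, with a median log2 fold change of 0.82. Dnajb9 (ERdj4) had 94.8, 92.8 and 172 CPM in knockout hearts, against 50.1, 43.6 and 45.8 CPM in control hearts. Each knockout heart was well above the control hearts, and Dnajb9 was called higher under all 14 alternatives (log2 fold change 1.36, SE 0.234, adjusted p = 0.00215, edgeR). Dnajb11 (ERdj3) had 54.8, 54.6 and 62.0 CPM in knockout hearts, against 37.7, 40.9 and 38.3 CPM in control hearts (log2 fold change 0.55, SE 0.112, adjusted p = 0.0043, edgeR). Sdf2l1, which binds ERdj3, was scarce, with 4.12, 3.16 and 4.17 CPM in knockout hearts, against 1.42, 1.56 and 2.42 CPM in control hearts. It was called higher (log2 fold change 1.08, SE 0.314, adjusted p = 0.0226, edgeR), and the call was lost with upper-quartile factors and without knockout heart 1, control heart 1 or control heart 2. Dnajc3 (p58IPK), also known as an inhibitor of PERK, had 89.0, 83.7 and 117 CPM in knockout hearts, against 75.1, 82.6 and 73.2 CPM in control hearts, and did not pass (log2 fold change 0.33, SE 0.145, adjusted p = 0.107, edgeR).

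Both secreted stress proteins rose. Manf, a neurotrophic factor kept in the ER with BiP, had 26.9, 24.0 and 48.1 CPM in knockout hearts, against 18.0, 20.3 and 21.4 CPM in control hearts (log2 fold change 0.73, SE 0.251, adjusted p = 0.0471, edgeR). Creld2, a secreted disulfide isomerase-like protein, had 14.1, 13.0 and 13.6 CPM in knockout hearts, against 9.45, 8.98 and 8.92 CPM in control hearts (log2 fold change 0.57, SE 0.158, adjusted p = 0.0187, edgeR). The knockout hearts were alike for Creld2, whereas knockout heart 3 had by far the highest Manf, and without it Manf had an adjusted p of 0.0706 (edgeR). Manf also missed the threshold with upper-quartile factors, with the filter at a mean CPM of 1 and when any single control heart was left out, and Creld2 missed it without knockout heart 1, control heart 1 or control heart 3 and with a replicate block.

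Wfs1, the ER membrane protein wolframin, linked to ER calcium, had 255, 269.7 and 342 CPM in knockout hearts, against 108, 109.5 and 129.5 CPM in control hearts. The lowest knockout heart was far above the highest control heart, and Wfs1 was called higher under all 14 alternatives (log2 fold change 1.32, SE 0.147, adjusted p = 1.61e-04, edgeR). Sec61b, a subunit of the channel through which proteins enter the ER, had 7.91, 7.23 and 5.49 CPM in knockout hearts, against 4.20, 4.51 and 3.15 CPM in control hearts, and rose by 0.80 on the log2 scale (SE 0.25, adjusted p = 0.0313, edgeR). That result was lost with upper-quartile factors and without knockout heart 1, knockout heart 2, control heart 1 or control heart 3.

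The 5 folding chaperones and lectins, the abundant proteins of the ER lumen, gave no gene past the test. Of all tested genes 19.9% rose and 18.5% fell, so that a list this short can hold few such genes at those shares. Hspa5 encodes BiP, the HSP70 of the ER that also holds the sensors inactive, and had 506, 513 and 1271 CPM in knockout hearts, against 556, 490.2 and 494 CPM in control hearts. Knockout hearts 1 and 2 lay among the control hearts, and knockout heart 3 lay 2.28 times above the highest control heart. The log2 fold change was 0.57 with all hearts (SE 0.353, adjusted p = 0.246, edgeR) and -0.0062 without knockout heart 3. Hsp90b1 (GRP94), the HSP90 of the ER, had 311, 338 and 443 CPM in knockout hearts, against 354, 331 and 293 CPM in control hearts, with a log2 fold change of 0.16 (SE 0.155, adjusted p = 0.452, edgeR) and of -0.0012 without knockout heart 3. Of its exon bases 10.3% overlap the opposite-strand pseudogene 1810014B01Rik, which had 407 to 497 counts in knockout hearts and 588 to 670 counts in control hearts, beside 18322 to 24444 counts of Hsp90b1 in knockout hearts and 11969 to 13346 in control hearts.

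Hyou1 (GRP170), which exchanges the nucleotide of BiP, had 45.6, 46.3 and 76.9 CPM in knockout hearts, against 41.1, 38.1 and 52.4 CPM in control hearts, again with knockout heart 3 alone outside the control range (log2 fold change 0.36, SE 0.221, adjusted p = 0.234, edgeR). Calr (calreticulin), a calcium-binding lectin of the lumen, had 227, 216 and 229 CPM in knockout hearts, against 248, 246 and 265 CPM in control hearts. All knockout hearts were lower by a small amount that did not pass (log2 fold change -0.18, SE 0.106, adjusted p = 0.222, edgeR), and with library totals alone the sign turned to 0.08. Canx (calnexin), the membrane-bound lectin of the same cycle, had 375, 406 and 427 CPM in knockout hearts, against 390.2, 289 and 349.5 CPM in control hearts, and the groups overlapped (log2 fold change 0.23, SE 0.137, adjusted p = 0.216, edgeR).

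Knockout heart 3 was the highest of the 3 knockout hearts in 22 of the 32 genes (68.8%), against 39.2% of all tested genes. Its CPM was more than 1.3 times that of the next highest knockout heart in 10 genes (31.2%), against 13.8% of all tested genes. The ratio was 2.48 for Hspa5, 1.81 for Dnajb9, 1.79 for Manf, 1.71 for Syvn1, 1.66 for Hyou1, 1.58 for Xbp1, 1.40 for Herpud1, 1.34 for Selenos and 1.31 for both Hsp90b1 and Dnajc3. Only 1.46% of tested genes had a ratio as large as that of Hspa5. In Ero1l, Ern1, Derl1, Atf6, Edem1 and Creld2 knockout heart 3 was between 0.758 and 1.10 times the higher of the other knockout hearts. Without it their log2 fold changes were 2.21 for Ero1l, 1.82 for Ern1, 1.54 for Derl1, 1.39 for Atf6, 0.78 for Edem1 and 0.57 for Creld2, each still past the adjusted p (edgeR). Knockout heart 3 was also under the lower of the other knockout hearts by the same factor in 3 genes, Pdia4, Atf6b and Sec61b, where 19.2% of all tested genes were.

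**Figure D3:**
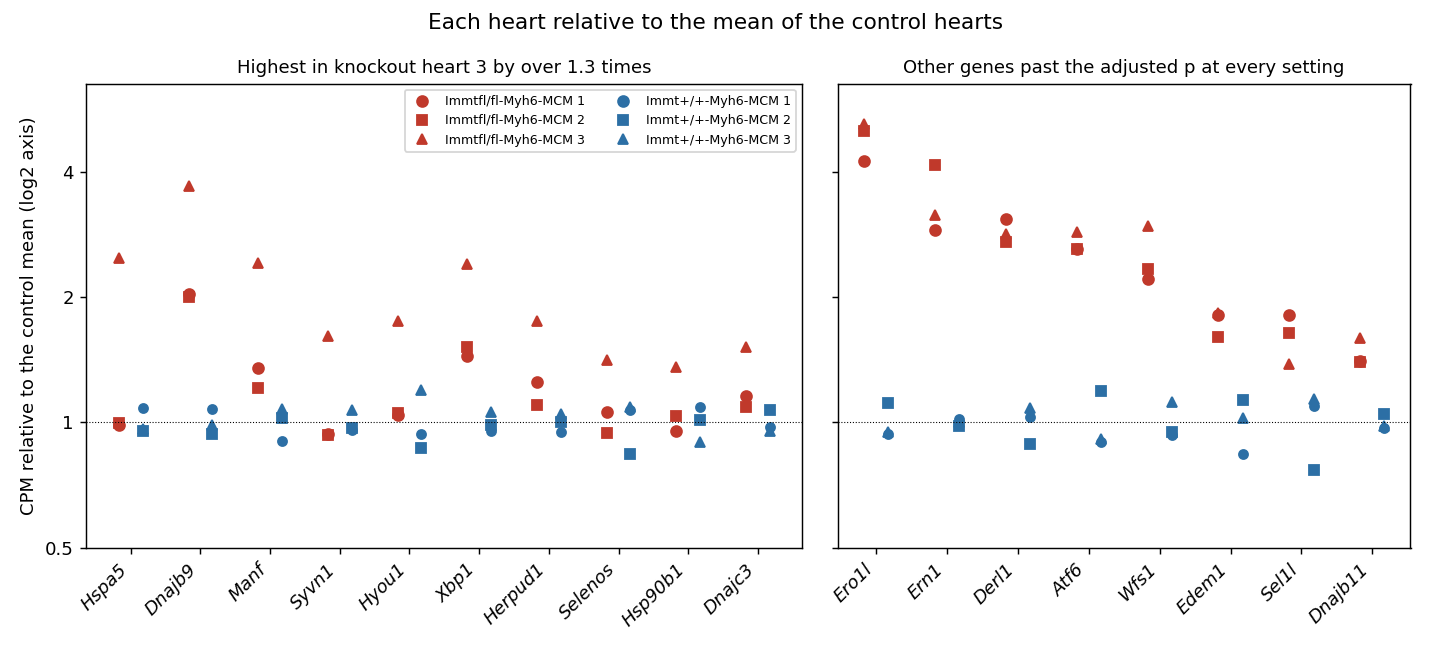
CPM of each heart divided by the mean of the 3 control hearts (log2 axis), for the 10 genes with knockout heart 3 more than 1.3 times above the other knockout hearts (left) and for 8 further genes that passed the adjusted p under all 14 alternatives (right), with knockout hearts in red left of control hearts in blue. Hspa5 is near 1 in knockout hearts 1 and 2, whereas all 3 knockout hearts are raised for Ero1l, Ern1, Derl1, Atf6 and Wfs1.

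The median coefficient of variation of the 32 genes was 18.3% in knockout hearts and 8.32% in control hearts, where all tested genes had 18.8% in knockout hearts and 15.4% in control hearts. The 32 genes were also more abundant, with a median control FPKM (counts scaled by gene length and library size) of 11.6, against 2.57. The part of abundance in these spreads was not tested. Summed CPM of the 32 genes was 4156, 4191 and 5687 in knockout hearts, against 3225, 3040 and 3143 in control hearts. Several marker sums also differed between knockout heart 3 and the other knockout hearts. Summed CPM of 10 cardiomyocyte markers was 31510, 37940 and 45390 in knockout hearts, against 75780, 72860 and 79320 in control hearts. Fibroblast markers, with knockout heart 3 between the others, summed to 1778, 1254 and 1473 CPM in knockout hearts, against 1157, 1588 and 1166 CPM in control hearts. Endothelial markers summed to 1322, 1272 and 1011 CPM in knockout hearts, against 1415, 1336 and 1433 CPM in control hearts, and smooth muscle markers to 1469, 1259 and 1032 CPM in knockout hearts, against 1377, 1245 and 1479 CPM in control hearts. Summed CPM of 10 macrophage markers was 592, 478 and 239.8 in knockout hearts, against 229, 289 and 275 in control hearts. Of these 10 markers 3 rose and 0 fell, where 19.9% of all tested genes rose and 18.5% fell. Summed CPM of 6 adipocyte markers was 396, 393 and 789 in knockout hearts, against 497, 535 and 397 in control hearts, and that of 8 T cell markers was 3.75, 2.93 and 22.4 in knockout hearts, against 3.75, 1.59 and 2.79 in control hearts. Knockout heart 3 and control heart 3 were the hearts with high Xist counts (20811 and 11605). Such counts are those of female mice. With a single such heart in each group, sex cannot be told apart from other differences between hearts. The part of these measures in the values of knockout heart 3 was not tested. Plasma cells and B cells, which have a large ER, were scarce, with summed CPM of 12 markers of 8.64 to 21.4 in knockout hearts, against 10.7 to 19.9 in control hearts. Of the 8 tested markers 1 fell and 0 rose, where 18.5% of all tested genes fell and 19.9% rose. No marker in the table was at 0 in all hearts.

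Read beside the promoter elements printed above, the 12 genes with an ERSE or ERSE-II match comprised 1 called higher (Derl3), 3 that rose (Derl3, Creld2 and Dnajb11) and a median log2 fold change of 0.28. The 16 matched genes with neither comprised 5 called higher, 10 that rose and a median log2 fold change of 0.74. Over all tested genes 9.91% were called higher and 19.9% rose, with a median of -0.0012. The call of Derl3 rests on 0 to 40 counts per heart. The 12 included Hspa5, Hsp90b1, Calr and Canx, while Ero1l, Ern1, Wfs1 and Dnajb9 were among the 16. Also among the 16 were Pdia4, Crebrf and Atf6b, with log2 fold changes below 0, and Pdia3, Derl2 and Selenos, and none of these passed. Atf6 and Derl1, both called higher, and Hyou1 and Manf had no matched window and are in neither class. Knockout heart 3 was the highest knockout heart in 9 of the 12 and in 10 of the 16, and more than 1.3 times above the other knockout hearts in 5 of the 12 and in 3 of the 16. These are descriptions of a list, and no test was made between the promoter classes.

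The PERK and ATF4 arm was taken as a separate list of 14 genes, which also holds Ero1l and Dnajc3. Of the 14, 9 were called higher, 10 rose and 0 fell, with a median log2 fold change of 2.73, beside 0.50 for the 32 genes. Of all tested genes 9.91% were called higher, 19.9% rose and 18.5% fell. The list was chosen with earlier results of these data known, so its counts and median are descriptions and not a test. Eif2ak3, which encodes PERK itself, had 17.0, 17.5 and 24.7 CPM in knockout hearts, against 13.95, 16.4 and 12.7 CPM in control hearts, and did not pass (log2 fold change 0.46, SE 0.193, adjusted p = 0.0898, edgeR). Ppp1r15a (GADD34), which recruits the phosphatase of eIF2alpha, had 138, 126 and 235 CPM in knockout hearts, against 18.0, 31.1 and 22.2 CPM in control hearts (log2 fold change 2.81, SE 0.297, adjusted p = 2.45e-04, edgeR). Ddit3 (CHOP), a factor linked to apoptosis, had 47.4, 62.7 and 106 CPM in knockout hearts, against 10.8, 10.5 and 13.0 CPM in control hearts (log2 fold change 2.65, SE 0.287, adjusted p = 2.45e-04, edgeR). Nupr1, a stress-induced chromatin protein, had 54.9, 47.6 and 41.9 CPM in knockout hearts, against 2.52, 5.01 and 3.01 CPM in control hearts (log2 fold change 3.77, SE 0.265, adjusted p = 1.57e-05, edgeR). The remaining genes called higher were Trib3, a pseudokinase, with a log2 fold change of 5.41, Sesn2, a sestrin, with 4.10, Chac1, which degrades glutathione, with 3.63, Atf4 with 3.22 and Atf3 with 3.02. Cebpg, a partner of ATF4, rose by 0.62 on the log2 scale (adjusted p = 0.036, edgeR), but its groups overlapped and the result was lost with upper-quartile factors and without knockout heart 2, knockout heart 3, control heart 1 or control heart 3. Cebpb (0.81) and Ppp1r15b (0.43), the constitutive partner of the eIF2alpha phosphatase, did not pass (adjusted p = 0.0974 and 0.0803, edgeR). ATF4 is also made downstream of the other eIF2alpha kinases, so the list is not particular to the ER.

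Of the 24 further genes of ER-associated degradation, 14 rose and 4 fell, with 3 called higher and 1 called lower (median log2 fold change 0.54). Of all tested genes 9.91% were called higher and 10.6% were called lower. Among the 24, Ube2g2, a ubiquitin-conjugating enzyme of the pathway, had a log2 fold change of 1.35, whereas Svip, an inhibitor of the pathway, had one of -2.36 (adjusted p = 1.01e-04 and 1.16e-05, edgeR). Against 19.9% of all genes rising and 18.5% falling, the lists for entry, glycosylation and export and the further lists had these counts. Of 24 genes of the translocon, signal recognition and signal peptidase 8 rose and 0 fell, of 25 genes of N-glycan transfer 6 rose and 1 fell, and of 23 COPII genes 4 rose and 1 fell, with medians of 0.31, 0.15 and 0.15 on the log2 scale. The COPII coat gene Sec23b was the only one of these called (log2 fold change 1.14, adjusted p = 7.09e-04, edgeR). Of 19 further ER oxidoreductases, 6 rose and 1 fell, and only Qsox1, a sulfhydryl oxidase, was called (log2 fold change 1.56, adjusted p = 1.74e-04, edgeR).

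Of 11 tested genes of the OASIS factors and ATF6 proteases, 4 rose and 2 fell (median -0.07), with Creb3 called higher at 1.09, a call lost with upper-quartile factors (0.98). Of 16 ER-phagy and ER shape genes, 4 were called higher and 2 lower, where 9.91% and 10.6% of all tested genes were. The reticulon Rtn4 had a log2 fold change of 3.47 and the ER-phagy receptor Tex264 one of 2.17, against -2.76 for Rtn2 and -1.0029 for Reep5 (adjusted p = 3.69e-06, 5.4e-06, 4.08e-05 and 2.29e-04, edgeR). The call of Reep5 was lost with library totals alone, with no filter, and without knockout heart 2, knockout heart 3, control heart 1 or control heart 3. In a list of sarcoplasmic reticulum luminal and calcium proteins, 3 of 18 tested genes rose and 10 fell, with a median of -0.72. Values ran from -4.08 for the calcium-binding Hrc and -2.15 for Pln to 1.86 for Atp2a1. The list is not confined to muscle genes, since it also holds Calu and Rcn1, for example. It shares Pln and Ryr2 with the 10 cardiomyocyte markers, whose median was -1.23. The mitochondrial unfolded protein response had 10 of 15 genes rising and 0 falling (median 0.49, with Lonp1 at 2.42 and Atf5 at 3.01), and the cytosolic heat shock response had 5 of 15 rising and 1 falling (median -0.05, with Hsp90aa1 at 2.30 and Hspb1 at 1.64).

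**Figure D4:**
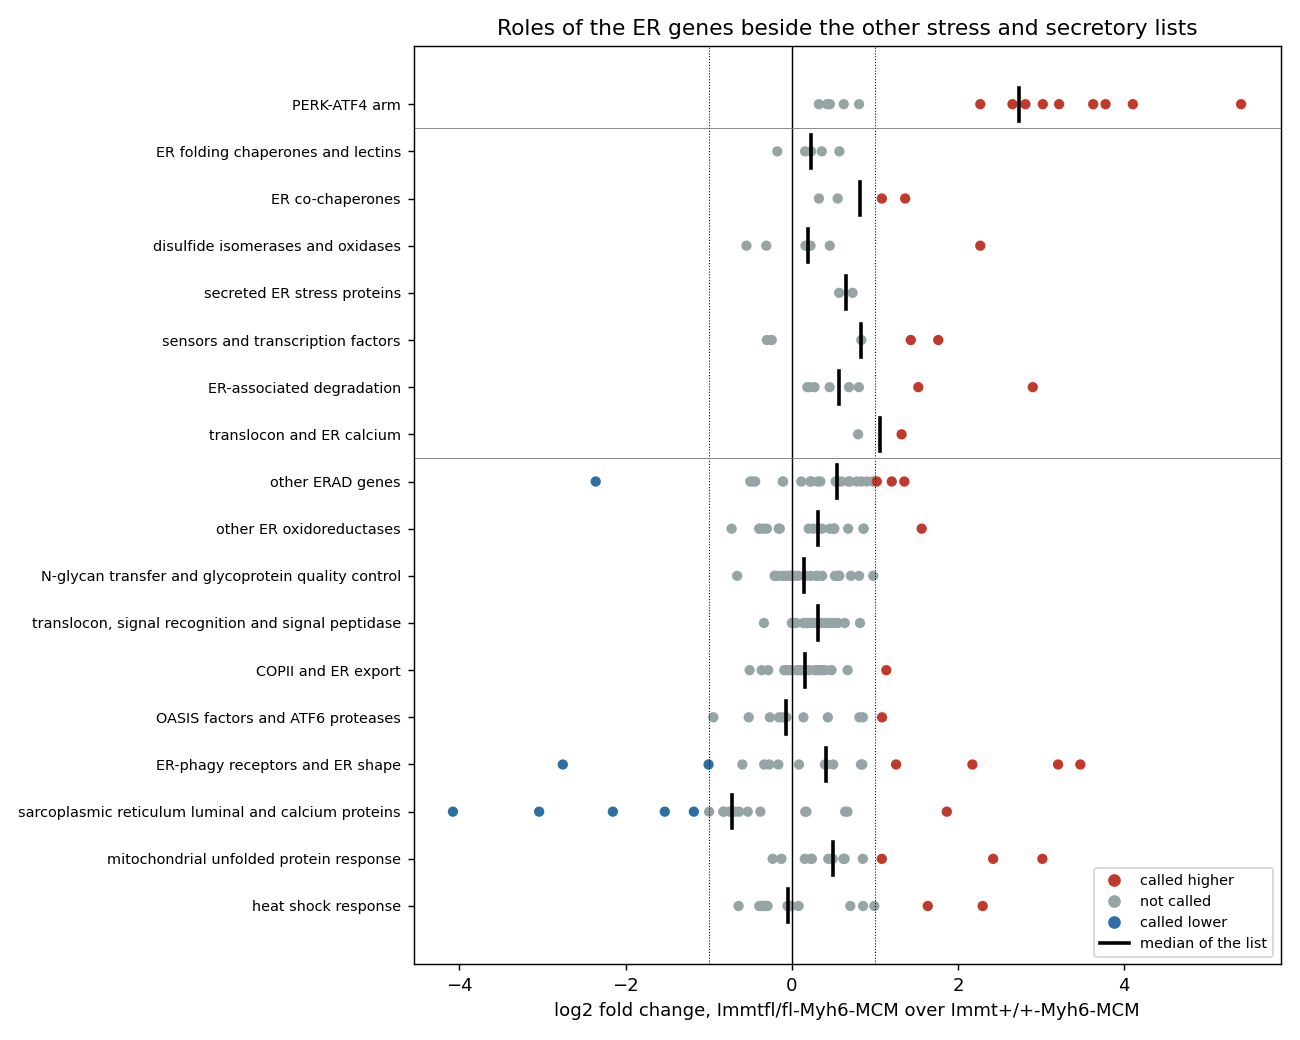
Log2 fold change, knockout over control, of every tested gene in the PERK and ATF4 list (top), in the 7 roles of the 32 genes (middle) and in 10 further lists (bottom), with a black bar at each median, red for genes called higher and blue for genes called lower. The median of the PERK and ATF4 list is 2.73, the medians of the 7 roles lie between 0.19 and 1.06, and that of the sarcoplasmic reticulum list is -0.72.

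Levels between genes were compared per length, by the deposited FPKM, in which counts are scaled by gene length and library size. The libraries were primed at the poly(A) tail and then tagmented, and whether counts grow with gene length in them was not tested, so that the order between genes depends on this scaling. Atf6, for example, had more CPM than Herpud1 in knockout hearts but fewer FPKM (56.0, against 124). By mean FPKM Hspa5 was the highest of the 32 genes in both groups, at 169 in knockout hearts and 113 in control hearts, followed by Herpud1 at 124 in knockout hearts and 89.8 in control hearts. Next came P4hb in knockout hearts, at 92.7 FPKM (67.1 in control hearts), and Calr in control hearts, at 81.4 FPKM (72.5 in knockout hearts). Ero1l had 20.9 FPKM in knockout hearts and 4.31 FPKM in control hearts, which placed it 13th of the 32 genes in knockout hearts and 25th in control hearts. Derl3 was the lowest in both groups, at 0.242 FPKM in knockout hearts and 0.0309 FPKM in control hearts.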

How the data were processed

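Per the labels, RNA was captured with oligo-dT primers carrying molecular identifiers, and the submitters' processing notes list GRCm38 (mm10), edgeR 4.0.16, featureCounts, Subread 2.1.1, SAMtools 1.22.1 and STAR 2.7.11. Not given in the sources used here were the use made of each tool, strandedness of counting and collapsing of identifiers. The authors deposited raw counts per gene, and FPKM values, which equal counts per kilobase of the deposited gene length divided by an effective library size for each heart. Size-factor-normalized values, group means and the authors' own fold changes and p-values were also deposited and were not used. For 24 genes a name stored as a date was replaced through its identifier. All 32 genes had the coordinates of GENCODE M21, and 8 share exon bases with another gene, at most 10.3% of them (Hsp90b1).

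Counts were tested with edgeR 4.0.16 in R 4.3.3 (minimum count 10, minimum total 15, TMM, robust quasi-likelihood, prior count 0.125) over 17146 genes. SE is the absolute log2 fold change divided by the square root of F. An exact permutation test of 3 hearts against 3 cannot go below p = 0.1 and was not used. The procedure was tested on simulated data. Alternatives were RLE, upper-quartile and library-total scaling, DESeq2 1.42.0, no filter, a mean CPM of at least 1, mitochondrially encoded genes left out, a replicate block and each heart left out. Named were all 32 genes, Immt, the PERK and ATF4 list and, from each other pathway list, up to 2 called genes in each direction with the smallest p, of which 1 is not reported here. The members and lists were chosen with earlier results of these data known. Each heart is 1 mouse, and depth limits precision mainly for Derl3.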

Additional observations from a re-analysis of the deposited data

How the results depend on the processing

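Counts of the 32 genes called higher were 7 to 11 under the scaling, tool and filter alternatives and 6 to 8 with 1 heart left out, and none was called lower. The number that rose was 13 with upper-quartile factors and 23 with library totals alone, and ranged from 10 to 15 with 1 heart left out. The share of all tested genes that rose under each alternative was not counted, so these numbers describe the 32 genes alone. The number that fell was 1 with upper-quartile factors (Crebrf, log2 fold change -0.41) and ranged from 0 to 1 with 1 heart left out. Without knockout heart 3 the log2 fold change turned to -0.0062 for Hspa5, -0.0012 for Hsp90b1 and -0.0924 for Syvn1, without knockout heart 1 to -0.0558 for Ero1lb, and with library totals alone to 0.0773 for Calr and 0.0194 for Atf6b. The highest values with 1 heart left out were 0.8091 for Hspa5, 0.2741 for Hsp90b1, 0.2953 for Ero1lb and 0.357 for Syvn1, and the cause was not tested. Library totals alone moved the median of the 32 genes to 0.75, with the median of all genes moved by 0.25. Same-numbered hearts did not deviate together (r = -0.00592, -0.0661 and 0.00674), and a replicate block gave 8 called higher and 15 that rose. The PERK and ATF4 list had 9 or 10 genes called higher under every alternative. Under the filter at a mean CPM of 1, Derl3 was not tested. With 3 hearts per group, the adjusted p of Sdf2l1, Derl3, P4hb, Manf, Creld2 and Sec61b was lost when at least 1 particular heart was left out.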
